A study of Neurospora crassa with 6 samples.

Results

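The 6 transcripts described here encode enzymes that make, use or break down glutamate and glutamine in Neurospora crassa, a filamentous fungus. They were taken as a list of gene identifiers with no threshold on a value, but with earlier results of these data known, and am, gdh-1 and glutaminase A stand in the study's tables of RNAs that went up or down in these libraries. The study also lists the proteins of gln-1 and gln-2 among those that differed between its strains. All 6 were found among the 9730 genes of the deposited table. They are am (NCU01195), en(am)-2 (NCU01744), gln-1 (NCU06724), gln-2 (NCU04856), gdh-1 (NCU00461) and glutaminase A (NCU03648). Each was above 0 in every library and passed a mean level of 1 FPKM. FPKM is a count of sequenced fragments divided by transcript length and by a measure of library size, so levels of different genes can be set side by side.

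RNA was sequenced from germinating conidia, asexual spores grown for 5 hr at 30°C in Vogel's medium with 0.05% glucose, of the os2 strain UCLA 80A and the wild type (wt) strain OR74A. There was 1 library for each of 6 groups, and the groups are os2 in dual stress (DS), os2 in heat shock (HS), os2 at 30°C, wt in DS, wt in HS and wt at 30°C. HS was 2 hr at 45°C, DS was 2 hr at 45°C with 2-deoxyglucose (2-DG), a glucose analog that blocks glycolysis, while control cultures spent 1 more hr at 30°C, so heat and the additional hour of culture cannot be told apart. The os2 strain carries a point mutation that truncates Os2, a stress-activated MAP kinase, in the SL4 background, and wt is OR74A, so the mutation and the strain background cannot be told apart either.

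In fungi, ammonium enters metabolism mainly through glutamate and glutamine. The NADP-dependent glutamate dehydrogenase encoded by am joins ammonium to 2-oxoglutarate, and glutamine synthetase, encoded by gln-1 and gln-2, joins ammonium to glutamate. Glutamate synthase, encoded by en(am)-2, moves the amide nitrogen of glutamine to 2-oxoglutarate, so that with glutamine synthetase it forms a route to glutamate beside that of am. The breakdown enzymes work the other way. The catabolic glutamate dehydrogenase encoded by gdh-1 releases ammonium and 2-oxoglutarate from glutamate, and glutaminase releases ammonium and glutamate from glutamine.

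With 1 library per group there is no test between groups, and no p-value is given. A difference of 2-fold, 1 on the log2 scale, was used as the limit for counting, and the spread between replicate cultures is unknown. HS/30, DS/30, DS/HS and os2/wt stand for the level in the library named first over that in the library named after the stroke. Each library holds the RNA of a whole culture, so fewer cells with a transcript and less of it per cell cannot be told apart. Median FPKM over genes above 0 lay between 13.5 and 15.4 in the 6 libraries, while column totals lay between 426267 (os2 HS) and 899576 (wt DS). Transcripts of os-2 itself (NCU07024) had 34.3 to 37.5 FPKM in the os2 libraries and 65.1 to 113 FPKM in the wt libraries, which is no check of a point mutation.

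The 4 assimilating enzymes had their lowest level in HS in wt, and the 2 breakdown enzymes had their lowest levels at 30°C in each strain. In DS the wt levels of the assimilating enzymes lay within 2-fold of the control, whereas am and gln-1 were at least 2-fold lower in os2 DS than in os2 at 30°C.

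**Figure D1:**
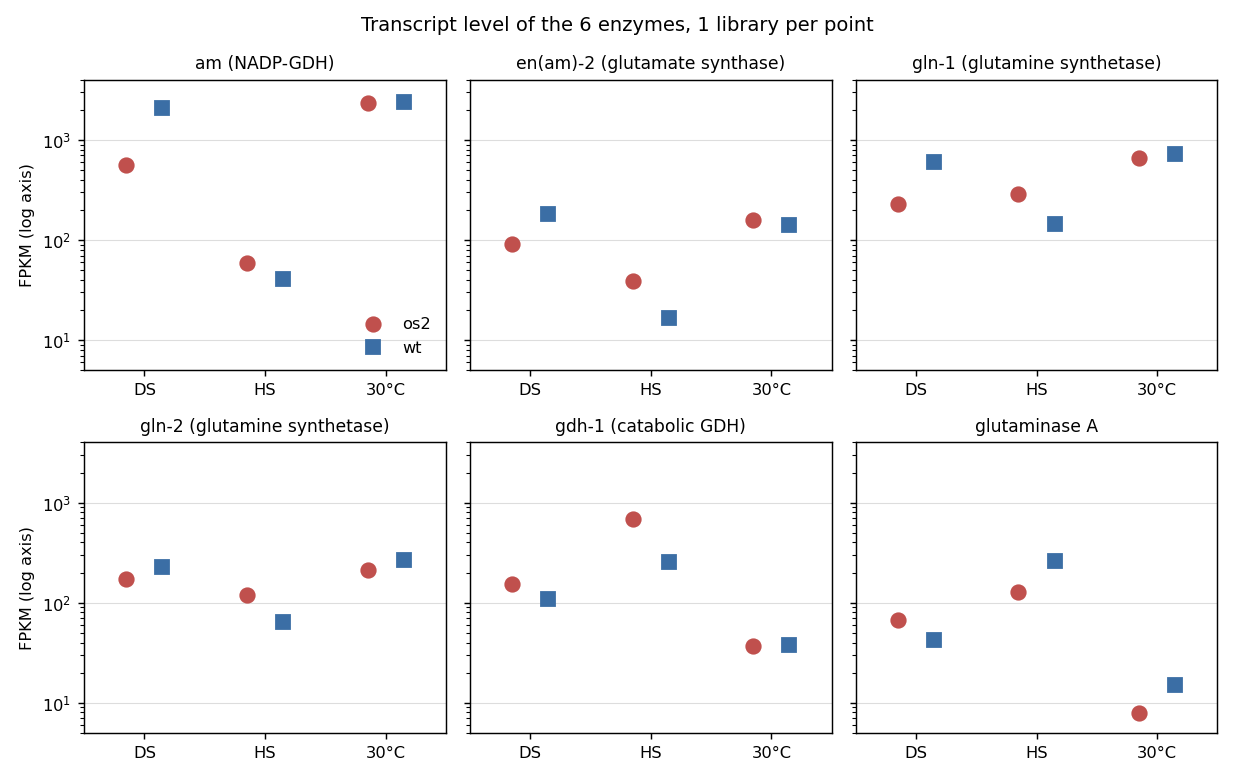
FPKM (log axis) of each enzyme in the 6 libraries, with os2 as circles and wt as squares in DS, HS and at 30°C, 1 library per point and so no error bars. The level of am was 59.3 FPKM in os2 HS and 40.8 in wt HS, against 2322 and 2388 at 30°C, while gdh-1 and glutaminase A lay higher in every stressed library than in either control.

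The transcript of am was the most abundant of the 6 at 30°C. It had 558, 59.3 and 2322 FPKM in os2 in DS, HS and at 30°C, and 2098, 40.8 and 2388 FPKM in wt. The controls and wt DS lay together at the top, within 1.14-fold of each other, os2 DS lay 3.76-fold under the lowest of them, and the HS libraries lay a further 9.41-fold or more below. By rank among the 9730 genes, am stood at place 112 in os2 DS, 1449 in os2 HS and 59 in os2 at 30°C, and at places 55, 2218 and 50 in wt.

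The log2 ratio of am was -5.29 in os2 HS/30 and -5.87 in wt HS/30, which is 39.1-fold and 58.5-fold lower than at 30°C. Of the genes compared, 19 of 8032 in os2 and 22 of 8013 in wt had a lower ratio. In DS/HS am was 9.41-fold higher in os2 and 51.4-fold higher in wt, and 30 of 8078 and 9 of 8079 genes had a higher ratio. Against 30°C, however, am in DS was 4.16-fold lower in os2 and 1.14-fold lower in wt. The os2 level in DS was 3.76-fold below that of wt, a log2 ratio of -1.91 that became -1.02 when all columns were scaled to an equal sum (total scaling).

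The glutamate synthase transcript en(am)-2, named for its enhancement of am mutants, had 91.7, 38.7 and 159 FPKM in os2 in DS, HS and at 30°C, and 183, 16.6 and 139.8 FPKM in wt. It was highest in wt DS, although its 3 highest levels lay within 1.31-fold of each other. In HS/30 it was 4.11-fold lower in os2 and 8.45-fold lower in wt. In DS/30 its log2 ratio was -0.79 in os2 and 0.39 in wt, neither past 2-fold.

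The glutamine synthetase transcript gln-1 had 227, 291 and 659 FPKM in os2 in DS, HS and at 30°C, and 605, 146 and 716 FPKM in wt. Its 3 lowest levels were wt HS, os2 DS and os2 HS, in that order from the lowest, and the other 3 lay within 1.18-fold of each other. The wt level in HS was 4.91-fold below that at 30°C, and the wt level in DS was 4.15-fold above that in HS. The os2 levels in HS and DS were 2.26-fold and 2.90-fold below that at 30°C, and each of these came under 2-fold with total scaling, at log2 ratios of -0.40 and -0.95. The log2 DS/HS ratio of gln-1 in os2 was -0.36.

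The other glutamine synthetase gene, gln-2, had 172, 121 and 212 FPKM in os2 in DS, HS and at 30°C, and 226, 64.6 and 270.0 FPKM in wt. It varied least of the 6, by 4.18-fold between its highest library, wt at 30°C, and its lowest, wt HS. The wt log2 ratios of HS/30 and DS/HS were -2.06 and 1.81. In os2 no ratio between conditions reached 2-fold. Its log2 ratio in os2 was -0.81 in HS/30, 0.51 in DS/HS and -0.30 in DS/30, where the last turned positive, to 0.29, with total scaling.

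The catabolic gdh-1 had 153, 692 and 37.2 FPKM in os2 in DS, HS and at 30°C, and 109.5, 253 and 37.9 FPKM in wt. The HS libraries were highest in each strain, the DS libraries lay between, and the 30°C libraries lay within 1.02-fold of each other at the bottom. In HS/30 gdh-1 was 18.6-fold higher in os2, where 61 of 8032 genes had a higher ratio, and 6.67-fold higher in wt, where 770 of 8013 had. In DS/30 it was 4.13-fold higher in os2 and 2.89-fold higher in wt. In DS/HS it was 4.51-fold lower in os2, where 23 of 8078 genes had a lower ratio, and 2.31-fold lower in wt.

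Glutaminase A had 66.9, 128 and 7.85 FPKM in os2 in DS, HS and at 30°C, and 42.6, 263 and 14.9 FPKM in wt. It was lowest at 30°C, and its highest level was in wt HS, unlike gdh-1, whose highest level was in os2 HS. In HS/30 it was 16.3-fold higher in os2 and 17.7-fold higher in wt. In DS/30 it was 8.52-fold higher in os2 and 2.86-fold higher in wt. Between the stresses, its log2 DS/HS ratio was -0.93 in os2 and -2.63 in wt, and the os2 ratio passed 2-fold, at -1.12 with total scaling and at -1.02 with the columns brought to an equal upper quartile.

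The counts of enzymes past 2-fold were read against the share of all genes past 2-fold in the same direction, over genes whose FPKM averaged at least 1 and was above 0 in the libraries compared. In HS/30 of os2, gdh-1 and glutaminase A were at least 2-fold higher, 2 of 6 against 19.3% of all genes, and am, en(am)-2 and gln-1 were at least 2-fold lower, 3 of 6 against 15.1%. In wt HS/30 all 6 were past 2-fold, with the same 2 higher, against 28.3% of all genes, and the other 4 lower, against 27.7%. The median log2 ratio of the 6 was -2.18 in wt HS/30, where that of all genes was -0.02.

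In DS/30 of os2, gdh-1 and glutaminase A were at least 2-fold higher, against 23.3% of all genes, and am and gln-1 were at least 2-fold lower, against 19.4%. In wt DS/30 the same 2 were higher, against 19.4% of all genes, and none was lower, against 15.1%. The 4 assimilating transcripts had log2 ratios between -0.26 (gln-2) and 0.39 (en(am)-2) in wt DS/30. HS/30 and DS/30 of a strain share the 30°C library, and DS/HS shares its libraries with each, so these counts are not separate evidence.

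In DS/HS of os2, am and en(am)-2 were at least 2-fold higher, against 10.2% of all genes, and gdh-1 was at least 2-fold lower, against 7.37%. In wt DS/HS the 4 assimilating transcripts were higher, against 21.1% of all genes, and gdh-1 and glutaminase A were lower, against 20.3%. Total scaling shifted the wt DS/HS ratios by -0.73 (log2), and each of the 6 kept its direction and stayed past 2-fold there. For am, gdh-1 and glutaminase A, which the study listed in its tables from these libraries, the sizes are no independent evidence of direction.

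**Figure D2:**
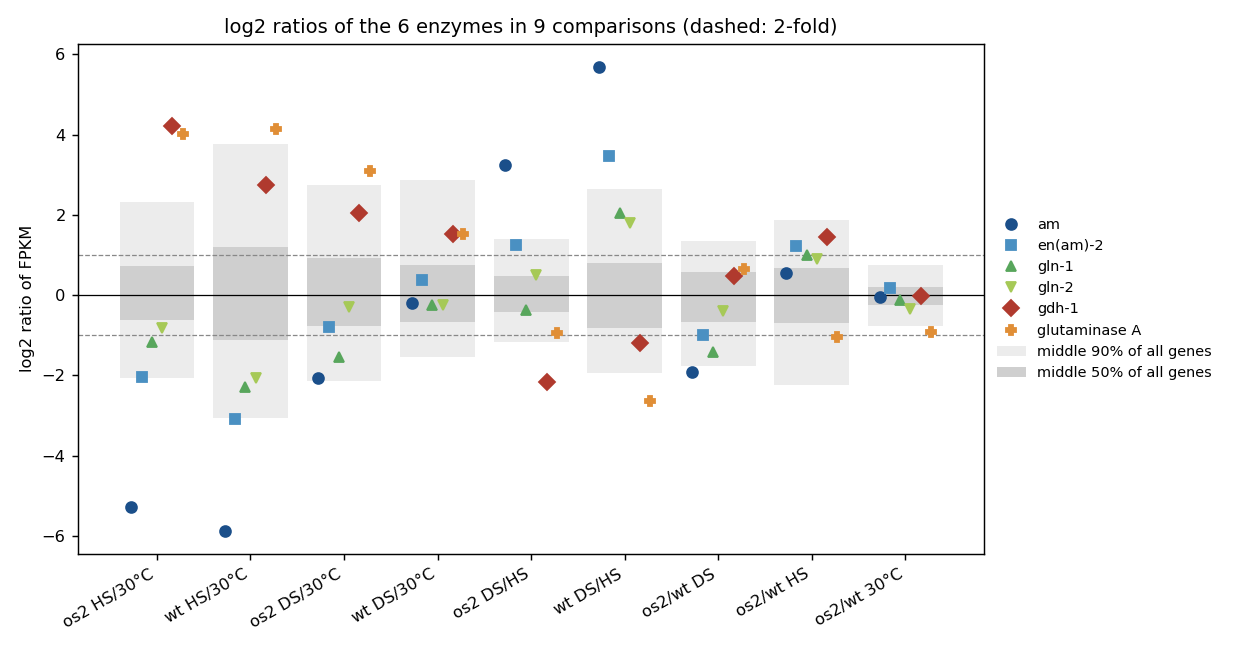
log2 ratios of FPKM of the 6 enzymes (symbols) in the 9 comparisons, 1 library over 1 other, over grey bars for the middle 50% and the middle 90% of all genes compared, with dashed lines at 2-fold. The ratios of am lay below the grey bars in HS/30, at -5.29 in os2 and -5.87 in wt, and above them in DS/HS, at 3.23 in os2 and 5.68 in wt.

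Between the strains, none of the 6 was past 2-fold in os2/wt at 30°C, where 2.99% of all genes passed 2-fold upward in os2 and 3.0% passed it downward. The log2 ratios at 30°C lay between -0.12 and 0.18 for am, gdh-1, en(am)-2 and gln-1, where the sign for gdh-1 (-0.03) turned with the columns brought to an equal upper quartile. They were -0.35 for gln-2 and -0.92 for glutaminase A, whose 7.85 FPKM in os2 lay 1.90-fold under the 14.9 FPKM of wt.

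In os2/wt HS, gdh-1 (2.74-fold) and en(am)-2 (2.34-fold) were at least 2-fold higher in os2, 2 of 6 against 16.3% of all genes, and glutaminase A (2.06-fold) was at least 2-fold lower, 1 of 6 against 17.9%. The next value under the limit was that of gln-1, 1.999-fold higher in os2, which passed 2-fold with each of the 3 scalings tried, followed by gln-2 at 1.87-fold. Glutaminase A came under 2-fold, at log2 ratios of -0.69 with total scaling and -0.95 with an equal upper quartile. In os2/wt DS none was at least 2-fold higher, against 11.4% of all genes, and am (3.76-fold) and gln-1 (2.67-fold) were at least 2-fold lower in os2, 2 of 6 against 16.5%. Just under the limit lay en(am)-2, 1.99-fold lower in os2, a log2 ratio of -0.99 that total scaling brought to -0.10. The study had listed the proteins of gln-1 and gln-2 as lower in os2 than in wt in DS, so these genes were not chosen blind to that direction. The log2 ratio of gln-2 in os2/wt DS was -0.39, which turned to 0.50 with total scaling, and those of gdh-1 and glutaminase A were 0.49 and 0.65. Total scaling brought gln-1 in os2/wt DS under 2-fold, at -0.52, and gdh-1 and glutaminase A past it, at 1.38 and 1.55.

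The difference between the strains' responses was taken as the log2 ratio of os2 minus that of wt, and it was not tested. For HS/30 it was 1.48 for gdh-1, 1.25 for gln-2, 1.12 for gln-1, 1.04 for en(am)-2, 0.58 for am and -0.12 for glutaminase A, the last turning to 0.25 with total scaling. Thus, in HS the 4 assimilating transcripts lay closer to their 30°C level in os2 than in wt, and gdh-1 lay further from it. Fewer of all genes passed 2-fold in HS/30 of os2 (19.3% higher, 15.1% lower) than of wt (28.3% and 27.7%). Genes with a lower HS/30 ratio made up 0.237% in os2 and 0.275% in wt for am, and 5.03% and 4.98% for en(am)-2. By this rank am and en(am)-2 stood nearly alike in the strains. The shares were 11.9% and 9.27% for gln-1, and 19.3% and 11.3% for gln-2. For gdh-1, 0.759% in os2 and 9.61% in wt had a higher ratio. Over 7982 genes compared, 33.9% differed between the strains' HS/30 ratios by at least 2-fold. For DS/30 the difference between the strains was -1.87 for am, -1.29 for gln-1, -1.18 for en(am)-2 and -0.04 for gln-2. It was 1.58 for glutaminase A and 0.51 for gdh-1, where 27.9% of 7977 genes differed by at least 2-fold. Total scaling brought these differences to -0.96 for am, -0.38 for gln-1 and -0.27 for en(am)-2, all under 2-fold, turned that of gln-2 to 0.87, and brought those of gdh-1 and glutaminase A to 1.43 and 2.49.

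A ratio between enzymes within a library does not depend on how the columns are scaled. The level of gdh-1 over that of am was 0.275, 11.7 and 0.0160 in os2 in DS, HS and at 30°C, and 0.0522, 6.19 and 0.0159 in wt. The ratio was above 1 in the HS libraries alone and differed by 1.01-fold between the strains at 30°C. In HS it was 728-fold over the 30°C ratio in os2 and 390-fold over it in wt. In DS it was 17.2-fold over the 30°C ratio in os2 and 3.29-fold over it in wt, and it was 5.26-fold higher in os2 than in wt.

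Glutaminase A over the sum of gln-1 and gln-2 was 0.168, 0.311 and 0.00902 in os2 in DS, HS and at 30°C, and 0.0513, 1.25 and 0.0151 in wt. The strains stood in opposite order in the stresses, since the ratio in os2 was 3.27-fold higher than in wt in DS and 4.03-fold lower than in wt in HS. The summed level of the glutamine synthetase transcripts was 399, 412 and 871 FPKM in os2 in DS, HS and at 30°C, and 831, 210.4 and 986 FPKM in wt.

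The level of gln-1 over gln-2 was 1.32, 2.42 and 3.11 in os2 in DS, HS and at 30°C, and 2.68, 2.26 and 2.65 in wt. Of the 6 libraries, os2 DS stood lowest, and the ratio there was 2.36-fold lower than in os2 at 30°C and 2.03-fold lower than in wt DS. The 3 wt libraries lay within 1.19-fold of each other. For en(am)-2 over am the ratio was 0.164, 0.651 and 0.0684 in os2 in DS, HS and at 30°C, and 0.0871, 0.406 and 0.0586 in wt, so am exceeded en(am)-2 in each library, by least in HS.

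**Figure D3:**
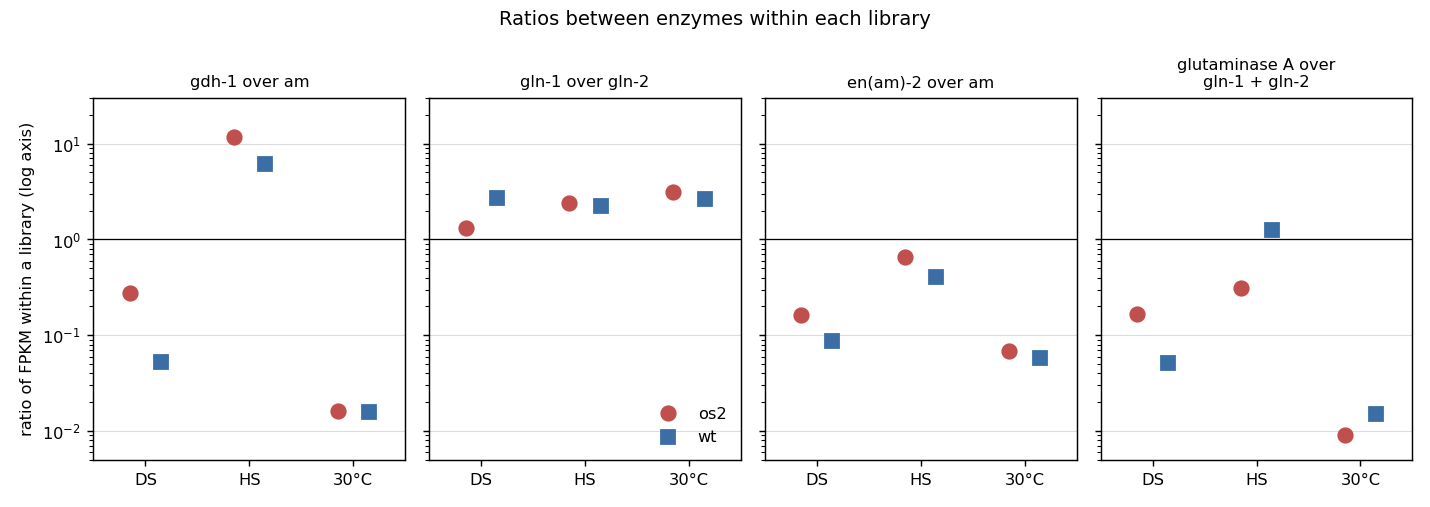
Ratios of FPKM between enzymes within each library (log axis), with os2 as circles and wt as squares in DS, HS and at 30°C, 1 library per point, and a line at 1. The ratio of gdh-1 to am was 11.7 in os2 HS and 6.19 in wt HS and below 1 in the other 4 libraries, and glutaminase A exceeded the summed glutamine synthetase level in wt HS (1.25) only.

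Taken as shares of the 6 enzymes' summed FPKM, am made up 44.0%, 4.46% and 68.4% in os2 in DS, HS and at 30°C, and 64.3%, 5.20% and 66.9% in wt. The breakdown enzymes gdh-1 and glutaminase A together made up 17.4%, 61.6% and 1.33% in os2, and 4.66%, 65.8% and 1.48% in wt. In HS the breakdown share was close in the strains, but it was divided differently. In os2 HS, gdh-1 held 52.0% and glutaminase A 9.62%, and in wt HS they held 32.2% and 33.6%. The share of gln-1 varied little, between 17.9% and 21.9% over the 6 libraries.

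**Figure D4:**
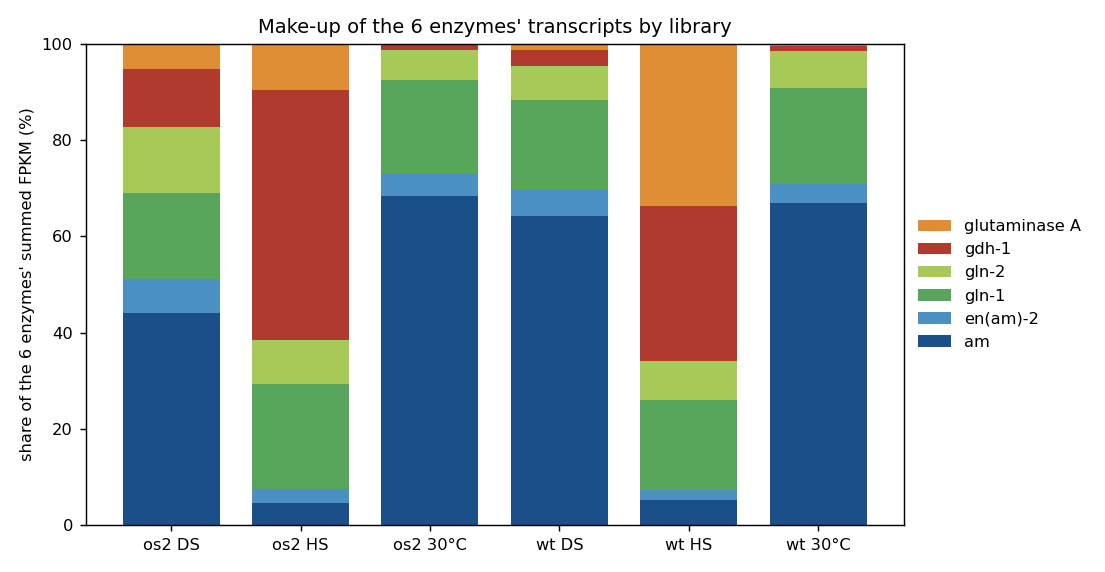
Share of each enzyme (stacked colors, in percent) in the summed FPKM of the 6 enzymes, 1 bar per library. The share of am was 4.46% in os2 HS and 5.20% in wt HS, and between 44.0% and 68.4% in the other 4 libraries.

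Patterns over the 6 libraries were compared between the enzymes. The measure was the root-mean-square difference between log2 levels centred on each gene's own mean, over 6 libraries of which 3 are of each strain. It was 0.39 between gln-1 and gln-2, 0.60 between en(am)-2 and gln-2, 0.64 between en(am)-2 and gln-1, and 0.81 between gdh-1 and glutaminase A. From am it was 1.31 to en(am)-2, 1.77 to gln-1 and 1.85 to gln-2, against 3.85 to gdh-1 and 4.10 to glutaminase A. The lowest between an assimilating and a breakdown enzyme was 2.04, between gln-2 and gdh-1. The measure is not scaled for the size of a gene's changes, which were largest for am. Many other genes lay closer to each. Among 5579 genes, gln-2 stood at place 303 for gln-1, en(am)-2 at place 119 and gln-1 at place 468 for am, and glutaminase A at place 50 for gdh-1.

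The 5579 genes were those above 0 in all libraries whose FPKM averaged 10 or more. The genes with a RefSeq symbol most like am were acw-10 (NCU03013, 0.41, the closest of all), the nitrite reductase gene nit-6 (NCU04720, 0.56, place 4) and eas (NCU08457, 0.83, place 13), which encodes a hydrophobin of the conidial surface. For gln-1 they were atp-2 (NCU05430, 0.14), the beta subunit of mitochondrial ATP synthase, cys-4 (NCU05238, 0.15) and the translation factor gene eif5A (NCU05274, 0.17), and for gln-2 tca-12 (NCU08336, 0.15), chol-1 (NCU08045, 0.18) and sre (NCU07728, 0.19). For en(am)-2 they were erg-4 (NCU03006, 0.20), the alpha-tubulin gene tba-1 (NCU09132, 0.21) and hex-1 (NCU08332, 0.22), whose product forms the Woronin body. For glutaminase A they were gh3-3 (NCU08755, 0.42), mus-18 (NCU08850, 0.47) and the glucoamylase gene gla-1 (NCU01517, 0.51). For gdh-1 they were gst-4 (NCU10521, 0.67, place 14), a glutathione S-transferase gene, stk-37 (NCU06006, 0.76) and gh3-3 (0.77).

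Genes that supply nitrogen to these enzymes were followed in a list of 6. The study lists nit-3, nit-6, Mep1, Mep2 and TamA among RNAs that went down in these libraries and Nmr among those that went up, so their directions were largely fixed by the choice and the counts are a description. In HS/30 those 5 were at least 2-fold lower in each strain, where 15.1% of all genes were in os2 and 27.7% in wt. Nit-6 had 43.9, 1.68 and 108 FPKM in os2 in DS, HS and at 30°C, and 97.2, 3.81 and 140.2 FPKM in wt, lowest in HS in each strain. The nitrate reductase gene nit-3 (NCU05298) had log2 HS/30 ratios of -3.55 in os2 and -3.01 in wt, and the ammonium transporter genes Mep1 (NCU03257) and Mep2 (NCU01065) had -1.93 and -4.89 in os2, and -2.18 and -4.67 in wt. TamA (NCU05994), a co-regulator of nitrogen-repressible genes, had -2.07 in os2 and -1.38 in wt. Nmr (NCU04158), a negative regulator of nitrogen metabolism, had 1.85 in os2 and 1.14 in wt. In DS/HS the same 5 genes were at least 2-fold higher in each strain, where 10.2% of all genes were in os2 and 21.1% in wt. With total scaling 3 of them were in wt, where 11.7% of all genes were. In DS/30, 1 of the 6 was at least 2-fold lower in os2 (nit-6), against 19.4% of all genes, and 1 in wt (Mep2), against 15.1%, and 1 was higher in os2 (Nmr), against 23.3%.

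Glutamate decarboxylases turn glutamate into GABA, and their genes differed from each other. NCU06803 had 1.39, 2.20 and 0.851 FPKM in os2 in DS, HS and at 30°C, and 5.46, 34.0 and 3.26 FPKM in wt, so it was highest in wt HS, and lower in os2 than in wt in every condition. Its log2 ratio was -3.95 in os2/wt HS and -1.94 in os2/wt at 30°C. NCU06112 had 7.34, 5.60 and 22.8 FPKM in os2, and 26.4, 2.77 and 39.1 FPKM in wt, where HS was lowest in each strain. Set against wt in DS, os2 had log2 ratios of -1.98 for NCU06803 and -1.85 for NCU06112, which total scaling brought to -1.08 and, under 2-fold, -0.95. The study had listed both proteins as lower in os2 than in wt in DS, so these genes were not chosen blind to that direction. NCU06803 averaged 7.86 FPKM and was not counted where a mean of at least 10 was asked for.

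Of 6 genes whose enzymes draw on glutamine nitrogen or work beside such a subunit, arg-2 and arg-3 (carbamoyl phosphate synthetase for arginine), pyr-3 (for pyrimidines), trp-1 and trp-2 (anthranilate synthase) and asn-2 (asparagine synthesis), 1 was at least 2-fold higher in HS/30 of each strain, against 19.3% of all genes in os2 and 28.3% in wt. This was asn-2 (NCU07300), with 53.2, 45.2 and 17.3 FPKM in os2 in DS, HS and at 30°C, and 20.9, 47.5 and 15.6 FPKM in wt. None was at least 2-fold lower in os2 HS/30, against 15.1% of all genes, and 2 of 6 were in wt HS/30, against 27.7%, pyr-3 (NCU08287) at -2.27 and arg-3 (NCU02677) at -1.70. The median of the 6 was 0.10 in os2 HS/30 and -0.88 in wt HS/30. In wt DS/30, 3 of 6 were at least 2-fold lower, against 15.1% of all genes, and none was higher, with a median of -0.996. One of them, arg-2 (NCU07732, log2 ratio -1.66), is listed by the study among RNAs that went down in wt DS/30 of these libraries. Its direction there is therefore no independent evidence. In os2/wt DS, 3 of 6 were at least 2-fold higher in os2, against 11.4%, and none was lower, with a median of 0.75. Total scaling made that 5 of 6, against 46.0% of all genes.

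Of 6 genes on the routes from glutamate to proline and ornithine, pro-1, pro-3, pro-4, arg-5, arg-6 and arg-14, none was at least 2-fold higher in os2 HS/30, against 19.3% of all genes, and 1 was lower, against 15.1%. In wt HS/30, 1 was higher, against 28.3% of all genes, and 3 were lower, against 27.7%. The gene pro-4 (NCU00106), of proline synthesis, was lower in each, with log2 HS/30 ratios of -1.73 in os2 and -3.89 in wt. The pyrroline-5-carboxylate reductase gene pro-1 (NCU06471), for the last step to proline, had 4.13, 2.26 and 4.50 FPKM in os2 in DS, HS and at 30°C, and 16.2, 30.8 and 7.26 FPKM in wt, which gave log2 HS/30 ratios of -0.995 in os2 and 2.08 in wt.

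**Figure D5:**
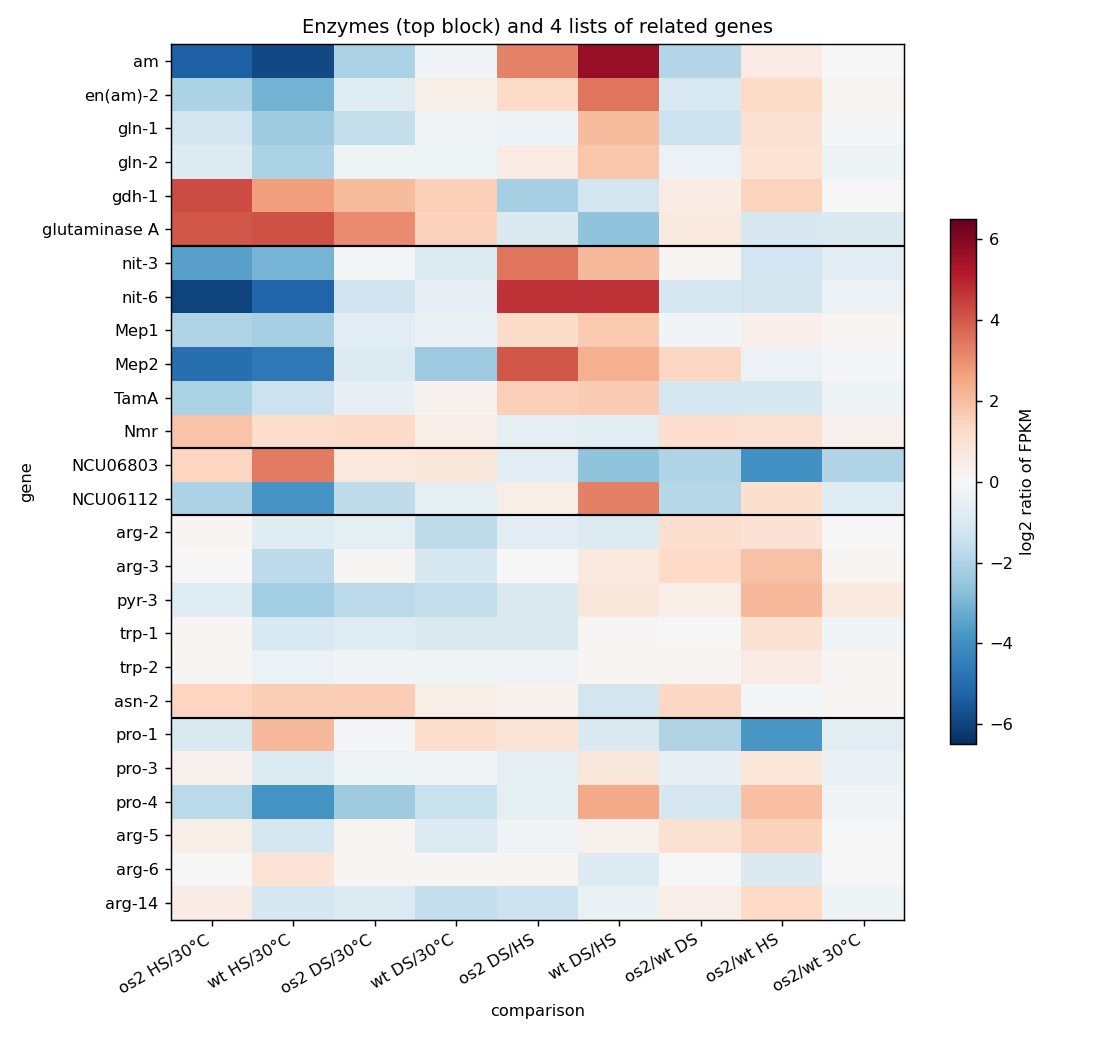
log2 ratios of FPKM (color, red higher and blue lower) in the 9 comparisons for the 6 enzymes (top block) and, below the lines, the lists of nitrogen supply, glutamate decarboxylase, glutamine-using and proline or ornithine genes, 1 library over 1 other. In HS/30 the blue of am (-5.29 in os2, -5.87 in wt) stood beside that of nit-6 in the next block (-6.01 in os2, -5.20 in wt).

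In RefSeq's annotation of assembly NC12, 3 of the 6 genes lie on chromosome V, which holds 16.2% of the matched genes. These are glutaminase A (1953854 to 1957179), am (3200862 to 3203095) and gln-1 (4393869 to 4397472), and they stand 1244 and 1191 kb apart. The others are en(am)-2 on chromosome II (2567182 to 2576313), gdh-1 on chromosome III (3944102 to 3949450) and gln-2 on chromosome IV (485244 to 488059).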

How the data were processed

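Polyadenylated RNA of 6 cultures was sequenced as paired-end reads. Per the paper's methods and the submitters' processing notes, reads were handled with CASAVA 1.8.2, checked with FastQC, aligned with TopHat to the 74a_12 genome and the Broad Institute transcriptome, and quantified with Cufflinks. The versions of TopHat and Cufflinks are not given in the sources used here. The authors deposited FPKM per gene and library. Whether columns were also normalised between libraries is not given in the sources used here. The deposited values are not fragment counts, so fragments per gene, and with them counting error, are not known exactly. The paper gives total reads per library, which were not used here. Median-ratio factors of the columns were 0.991 to 1.01 while their totals ran from 426267 to 899576. The columns as deposited thus already stood on a common median-ratio scale, and the values were used as deposited. Median-ratio scaling therefore repeats that scale, while total scaling moves the columns off it.

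Each log2 ratio is that of 2 libraries, with no pseudocount added, over genes above 0 in the libraries compared. Counts used 2-fold and a mean FPKM of at least 1 (8098 genes). Named genes were the 6 enzymes, os-2, 20 genes of 4 lists and, for each enzyme, the 3 closest genes with a RefSeq symbol. The members and lists were chosen with earlier results of these data known. RefSeq's table of NC12 matched 9729 identifiers and all 12 listed symbols. A row without an identifier was left out. Alternatives were 3 scalings, 2 pseudocounts and 2 filters. Python 3.11.15, numpy 2.4.6, pandas 2.3.3 and matplotlib 3.10.9 were used. The 2-fold calls and the median-ratio scaling, and no other step, were run on simulated data with planted changes past the limit and little noise. That run checks the code and says nothing of the spread between cultures.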

Additional observations from a re-analysis of the deposited data

Results flagged for a closer look

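For 2 results the strains moved in opposite directions under the same contrast, with 1 library on each side, and the difference was not tested. The log2 DS/30 ratio of en(am)-2 was -0.79 in os2 and 0.39 in wt, a difference of -1.18 in which neither strain was past 2-fold. Of 7977 genes, 27.9% differed at least 2-fold between the strains' DS/30 ratios. The log2 DS/HS ratio of gln-1 was -0.36 in os2 and 2.05 in wt, a difference of -2.41. Of 8063 genes, 48.7% differed at least 2-fold between the strains' DS/HS ratios. Under the 3 scalings and the 2 pseudocounts tried, these ratios kept their signs, with ranges of -0.80 to -0.20 in os2 and 0.06 to 0.41 in wt for en(am)-2, and of -0.54 to -0.36 in os2 and 1.32 to 2.05 in wt for gln-1.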

How the results depend on the processing

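With total scaling, log2 ratios shifted by 0.77 in os2 HS/30, 0.41 in wt HS/30, 0.59 in os2 DS/30, -0.32 in wt DS/30, -0.18 in os2 DS/HS, -0.73 in wt DS/HS, 0.89 in os2/wt DS, 0.35 in os2/wt HS and -0.02 in os2/wt at 30°C. The enzymes at least 2-fold lower then numbered 1 in os2 DS/30, against 2 as deposited, 2 against 1 in os2 DS/HS, 1 against 2 in os2/wt DS and 0 against 1 in os2/wt HS, and those at least 2-fold higher numbered 2 against 0 in os2/wt DS and 4 against 2 in os2/wt HS. An equal upper quartile gave 2 lower in os2 DS/HS and 0 lower in os2/wt HS. The other 118 of 126 recomputed counts of enzymes stayed within 1.5 times. This limit allowed 2 against 3 for those lower in os2 HS/30 with total scaling. It also allowed 3 against 2 for those higher in os2/wt HS with median-ratio scaling and with an equal upper quartile. The tally of 126 includes the filters, which could not change these counts, since the lowest mean of an enzyme was 87.3 FPKM. Median-ratio scaling and the pseudocounts moved none past that limit of 1.5 times. With total scaling 6 counts moved and 12 did not. No log2 ratio of an enzyme past 2-fold changed sign. Of the lists, total scaling gave 0 nitrogen supply genes lower in os2 DS/30 (1 as deposited), 2 lower in wt DS/30 (1) and 3 higher in wt DS/HS (5), and 3 proline or ornithine genes higher and 0 lower in os2 HS/30 (0 and 1) and 2 higher and 1 lower in wt HS/30 (1 and 3). Median-ratio scaling gave 2 of them lower in os2 HS/30. Decarboxylase genes lower in os2/wt DS numbered 1 (2 as deposited) with total scaling, and 1 where FPKM had to average 10 or more.

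Over all genes, total scaling gave 41.5% higher and 6.36% lower in os2 HS/30 (19.3% and 15.1% as deposited), 36.2% and 19.9% in wt HS/30 (28.3% and 27.7%), 37.6% and 9.46% in os2 DS/30 (23.3% and 19.4%), 14.6% higher and 2001 of 8005 genes lower in wt DS/30 (19.4% and 15.1%), 7.14% higher and 11.4% lower in os2 DS/HS (10.2% and 7.37%), 11.7% and 43.7% in wt DS/HS (21.1% and 20.3%), 46.0% and 4.1% in os2/wt DS (11.4% and 16.5%) and 26.0% higher and 966 of 8081 genes lower in os2/wt HS (16.3% and 17.9%). For os2/wt at 30°C, 2.99% and 3.0% as deposited, a pseudocount of 1 gave 1.38% higher and 1.57% lower, and a mean FPKM of at least 10 gave 0.824% higher. With 1 library per group, no replicate could be left out and no pairing applied.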
